A study of Lithospermum officinale with 3 samples.

Results

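The longest assembled transcripts of *Lithospermum officinale*, a medicinal herb of the borage family, were examined in leaf, stem and root. They were the 312 unigenes with a deposited length above 5000 nt, out of 77047 in all, and the rule that chose them uses length and no expression value. A unigene is a sequence put together from sequencing reads without a genome. The 312 made up 0.405% of the unigenes and 2.60% of the assembled bases. The leaf, stem and root groups came from untreated plants aged 2 years growing outdoors, with 1 library per tissue, made from poly(A) RNA by a strand-specific method and read as paired ends of 101 bp on average. No genotype, strain or clone is named in the sources used here, nor whether several plants were pooled. With 1 library per tissue no value has a replicate error, and no difference between tissues was tested.

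Long messengers in plants encode large proteins, among them callose synthases, full-size ABC transporters, myosins and the kinases and scaffold proteins of growth control. An assembly made without a genome can also give long sequences by joining separate transcripts, from ribosomal or organellar RNA, or as several near-identical variants of 1 locus. A long messenger yields more fragments than a short one at the same number of molecules, so counts favour long unigenes. TPM divides the count by the effective length, sets every library to the same total and allows levels of different unigenes to be compared. No gene name stands beside a unigene ID in the files and no sequence was used here, so which of these kinds each unigene belongs to was not analysed here, and the tissue labels were not checked against marker genes.

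The 312 lengths ran from 5001 to 12400 nt, with a median of 5621.5 nt and quartiles of 5254 and 6250 nt. There were 209 unigenes of up to 6000 nt, 88 of up to 8000 nt, 8 of up to 10000 nt and 7 above that. Unigenes on both sides of the 5000 nt limit were of low level. Just above it, Unigene61863 (5001 nt) stood at 0.65 TPM in leaf, 1.01 in stem and 1.98 in root, Unigene35820 (5008 nt) at 1.95, 5.25 and 5.36 TPM, and Unigene62050 (5010 nt) at 0.54, 1.57 and 2.16 TPM. Just below it, Unigene8429 (4999 nt) stood at 3.26 TPM in leaf, 5 in stem and 6.19 in root, Unigene63554 (4996 nt) at 2.94, 4.74 and 4.18 TPM, and Unigene62362 (4995 nt) at 2.99, 4.91 and 7.42 TPM.

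Nearly all of the long unigenes were detected in every tissue. At least 1 expected count (the number of fragments that RSEM assigned) was recorded for 309 of 312 in leaf, 312 in stem and 312 in root, and at least 10 counts for 303, 307 and 312. A level of 1 TPM or more was reached by 292 in leaf (93.6%), 303 in stem (97.1%) and 310 in root (99.4%). Over all unigenes these shares were 63.1%, 76.2% and 78.1%, and over the 573 unigenes above 4000 and up to 5000 nt, the next shorter class, they were 87.1%, 93.7% and 93.0%. The leaf library held 3490670 counts, the stem library 4469828 and the root library 10045956. Median counts of the long unigenes were 68 (leaf), 140.5 (stem) and 286 (root), against 2, 5 and 6 over all unigenes, so they were measured with far less counting error than most of the assembly. The 3 that had no count in leaf were Unigene19935, Unigene40111 and Unigene35821, and each had counts in both other tissues. At a length of 5001 nt, a count of 0 allowed a level of up to 0.163 TPM in leaf, taking 3 counts as the limit, and this covers counting error only. The 2 members under 1 TPM in root were Unigene46337 and Unigene50460.

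Per length, the typical long unigene was expressed at a low level in each tissue. The leaf median was 3.18 TPM (quartiles 2.11 and 5.01), the stem median 5.01 TPM (3.07 and 7.97) and the root median 6.80 TPM (4.42 and 11.2). The middle of the distribution hardly depended on the most counted unigene. Without Unigene28437 the medians were 3.17, 5.01 and 6.79 TPM, and after rescaling TPM to the remaining unigenes they were 3.24, 5.09 and 7.20 TPM. In the next shorter class the medians were 2.82, 4.57 and 5.52 TPM, and over all unigenes 1.81, 2.80 and 2.82 TPM. Levels of 10 TPM or more were reached by 31 of the 312 long unigenes in leaf, 54 in stem and 94 in root. Of the 573 unigenes of the next shorter class, 43, 104 and 136 reached it, and of all 77047 unigenes 6652, 10046 and 11104.

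**Figure D1:**
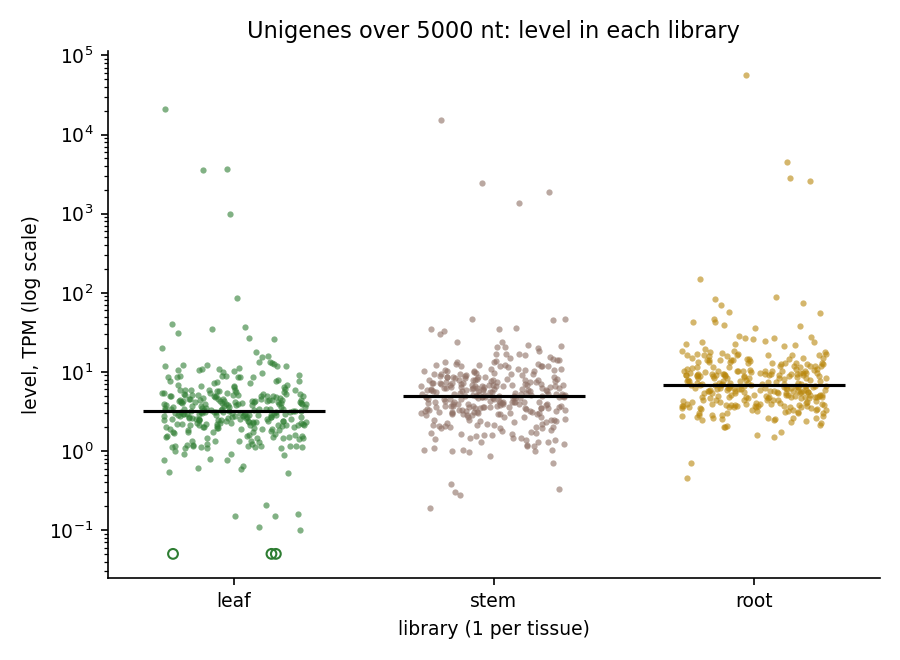
Level of each of the 312 unigenes over 5000 nt (points, TPM on a log scale) in the leaf, stem and root libraries, with the median as a black line; open circles near the bottom are the 3 unigenes with no count in leaf, whose TPM is 0. In each library 4 unigenes stand above 900 TPM while the medians lie at 3.18, 5.01 and 6.80 TPM.

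The counts were concentrated in very few of the long unigenes. In leaf the 312 held 25.6% of all counts (95% exact binomial interval 25.59% to 25.68%), in stem 18.5% (18.43% to 18.50%) and in root 39.8% (39.80% to 39.86%). Unigene28437 alone carried 76.5% (leaf), 74.2% (stem) and 86.3% (root) of these counts. With it left out of both the sum and the total, the other 311 held 7.48% in leaf (7.45% to 7.51%), 5.52% in stem (5.49% to 5.54%) and 8.32% in root (8.30% to 8.34%). Root therefore led with and without it, but by far less without it. This order depended on leaving it out of the total as well. Against the full library totals the 311 held 6.01% of leaf, 4.76% of stem and 5.46% of root counts, with leaf highest. In TPM the 312 held 3.08% of leaf, 2.30% of stem and 7.02% of root, and the 311 held 0.995%, 0.790% and 1.39%. When the 4 unigenes of highest mean TPM were left out, the shares of the other 308 fell to 1.25% (leaf), 1.57% (stem) and 2.18% (root). These intervals cover counting error within 1 library only. The libraries carried no molecular identifiers that would show copies of 1 molecule, and the intervals do not allow for such copies.

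**Figure D2:**
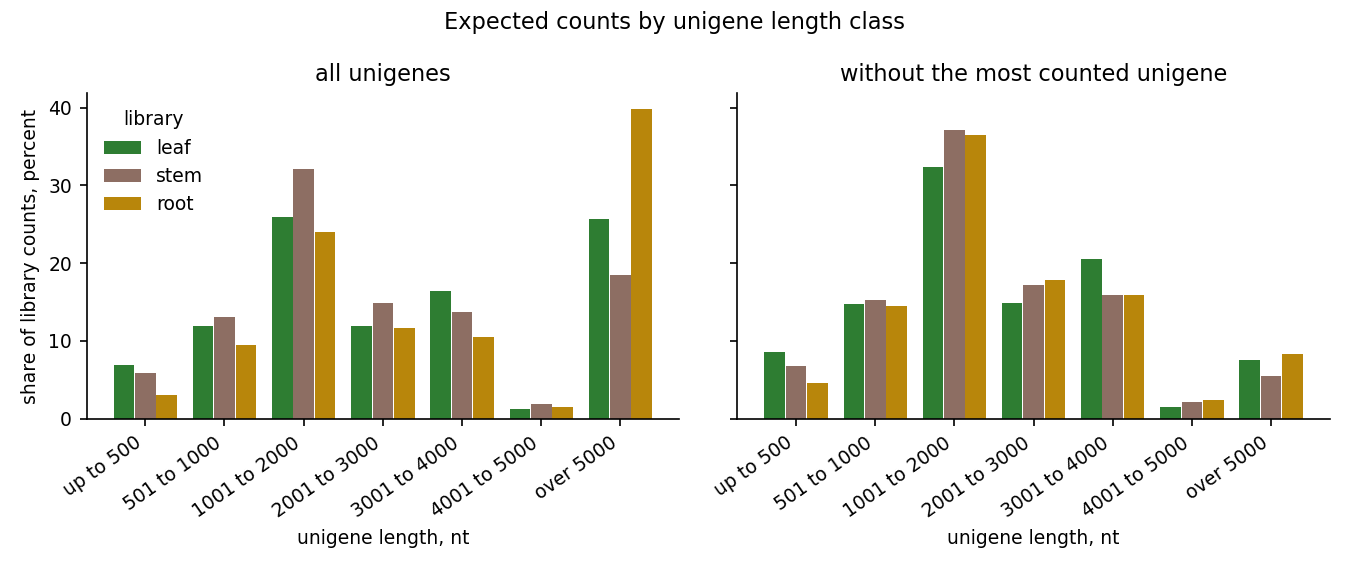
Share of each library's expected counts (percent) held by unigenes of each length class in leaf, stem and root, with all unigenes at left and without the most counted unigene at right. In the class over 5000 nt the bars fall from 25.6%, 18.5% and 39.8% to 7.48%, 5.52% and 8.32%.

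A wide gap set 4 long unigenes apart from the others in every library. Unigene28437, Unigene53343, Unigene9617 and Unigene42138 ranked 1, 4, 5 and 6 among all unigenes by total counts, and only 1 other long unigene, Unigene29147 at rank 95, was among the 100 most counted. No long unigene lay between 100 and 500 TPM in leaf or stem, and 1 did in root. Among the other 308 the highest level was 84.6 TPM (leaf), 46.2 TPM (stem) and 149.8 TPM (root).

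Unigene28437 (8690 nt, the tenth in length) had 684813 leaf counts, 612607 stem counts and 3452318 root counts, at 21092, 15218 and 57122 TPM. Root was its highest library and stem its lowest. To compare libraries, counts were scaled by TMM (trimmed mean of M-values), which levels the libraries on a trimmed mean of log ratios. The median unigene was not level on this scale. Over all unigenes tested, the median log2 ratio was -0.40 for leaf to root, -0.20 for stem to root and -0.12 for leaf to stem. With TMM Unigene28437 was 1.73-fold higher in root than in leaf (95% counting interval 1.72 to 1.73). It was 3.45-fold higher in root than in stem (3.44 to 3.46) and 2.00-fold higher in leaf than in stem (1.99 to 2.01). These folds are not relative to the median unigene. A difference between tissues in such bulk RNA can come from the number of cells of a type or from the RNA per cell, and these cannot be told apart. On the scale of deposited TPM the log2 ratio of leaf to root was -1.44, against -0.79 with TMM.

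Unigene53343 (6532 nt) had the same order of libraries at the root end, with 24049 leaf counts, 41471 stem counts and 202816 root counts, at 992, 1380 and 4495 TPM. It was 2.89-fold higher in root than in leaf (2.85 to 2.93) and 3.00-fold higher in root than in stem (2.97 to 3.03). Its leaf and stem levels could not be ordered, as the log2 ratio of leaf to stem was 0.05 with TMM and -0.48 on deposited TPM.

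Unigene9617 and Unigene42138 were the abundant long unigenes with leaf at the top. Unigene9617 (5874 nt) had 80341 leaf counts, 65122 stem counts and 112930 root counts, at 3697, 2417 and 2791 TPM. It was 2.08-fold higher in leaf than in root (2.06 to 2.10) and 2.21-fold higher in leaf than in stem (2.18 to 2.23). Unigene42138 (5493 nt) had 72647, 47934 and 98260 counts, at 3582, 1906 and 2603 TPM, and was 2.16-fold higher in leaf than in root (2.14 to 2.18) and 2.71-fold higher in leaf than in stem (2.68 to 2.74). The profiles of these unigenes resembled each other across the 3 libraries. For both, leaf stayed above root and stem under every scale tried, while the order of stem and root turned when libraries were scaled by total counts. The lowest log2 ratio of leaf to root over the scales was 0.41 for Unigene9617 and 0.46 for Unigene42138.

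The next members by mean TPM lay far lower and were mostly highest in root. Unigene47760 (5125 nt) stood at 30.7 TPM in leaf, 46.2 in stem and 82.4 in root, Unigene5926 (5347 nt) at 26.5, 34.5 and 88.5 TPM, and Unigene55288 (6515 nt) at 20.1, 46.0 and 70.2 TPM. All of them were lower in leaf than in root, with ratios of leaf to root of 0.584, 0.470 and 0.448 in the same order. Unigene28304 (5048 nt) was more even, at 34.9, 36.1 and 47.0 TPM, and the sign of each of its log2 ratios depended on the scale. Unigene48626 (5575 nt) ran the other way, with 1743 leaf counts, 1141 stem counts and 1076 root counts. It stood at 84.6, 44.7 and 28.1 TPM and was 4.73-fold higher in leaf than in root (4.38 to 5.10). Unigene39933 (5036 nt) was almost a root transcript, with 11 leaf, 32 stem and 5170 root counts, or 0.59, 1.39 and 149.8 TPM. Only the 4 most abundant long unigenes had a higher TPM in root.

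The 5 longest unigenes were of low to moderate level. Unigene4641 (12400 nt) stood at 5.60 TPM in leaf, 9.31 in stem and 16.3 in root, and Unigene9102 (12381 nt) at 7.76, 13.3 and 16.3 TPM. Unigene8971 (11844 nt) stood at 4.07, 5.18 and 5.98 TPM, Unigene3526 (11585 nt) at 9.01, 13.9 and 17.3 TPM, and Unigene63569 (11393 nt) at 3.53, 4.64 and 5.75 TPM. Root was the highest library for each of them in TPM. With TMM scaling their log2 ratios of leaf to root lay between -0.89 (Unigene4641) and 0.09 (Unigene8971), and on deposited TPM between -1.54 and -0.56 for the same unigenes. Unigene4641 was 1.85-fold higher in root than in leaf (1.62 to 2.12). Among the 312, Spearman's rho of length with TPM was 0.251 in leaf, 0.250 in stem and 0.129 in root, given as a description across unigenes that share a library.

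Root was the library of highest TPM for most long unigenes, 271 of 312 (86.9%), with 31 highest in stem and 10 in leaf. Of all unigenes that reached 1 TPM in any library, 50.6% were highest in root, and among those of the next shorter class the share was 72.4%. The leaning was smaller with TMM-scaled counts, where root led for 225 (72.1%), stem for 38 and leaf for 49, against root shares of 43.7% over all unigenes and 62.5% in the next shorter class. The size of these differences depended on the scale. With TMM scaling 72.1% of the long unigenes lay within 2-fold between leaf and root, against 59.5% of all unigenes tested. Between stem and root 79.8% did, against 70.2%. Over the scales tried, the members' median log2 ratio of leaf to root ran from -1.06 to -0.40. The tissue index tau on log2(TPM + 1), which is 0 for equal levels and 1 for a single tissue, had a median of 0.224 over the long unigenes and 0.232 for all 25197 unigenes with at least 50 counts. Tau was under 0.2 for 132 long unigenes (42.3%), against 40.01% of the 25197. Among members of 10 TPM or more tau was lowest for Unigene9617 (0.043) and Unigene35834 (5889 nt, 0.045), the latter at 13.0, 16.6 and 16.9 TPM. On this log scale a given fold counts for less at a high level. Tau was taken on deposited TPM, where the log2 ratios of Unigene9617 were 0.41 (leaf to root) and 0.61 (leaf to stem). Its ratios of over 2-fold given above were on TMM-scaled counts.

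Tau reached 0.85 for 7 long unigenes, and root was the highest library of each. This number depended on the scale, with 2 at a pseudocount of 0.1, 11 at a pseudocount of 5 and 3 on TMM-scaled CPM. The 7 were 2.24% of the 312, against 0.806% of the 25197 and 0.349% (2 of 573) of the next shorter class. Shares of other unigenes were computed at a pseudocount of 1 only, so this difference was not examined under the other settings. Unigene19935 (8045 nt) had 0 leaf, 7 stem and 1462 root counts, or 26.2 TPM in root. Unigene40111 (5539 nt) had 0, 7 and 618 counts, at 16.2 TPM in root, and Unigene35821 (5195 nt) had 0, 9 and 264, at 7.41 TPM. These and Unigene39933 had near-empty shoot libraries. The others, named after their values were seen, were Unigene58071 with 2, 7 and 567 counts, Unigene60632 with 3, 17 and 414, and Unigene52567 with 3, 8 and 239.

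The first comparison set leaf, where photosynthesis takes place, against root. All 312 long unigenes had the 50 counts over both libraries that were required. By a ratio of scaled counts of 4-fold or more, 18 (5.77%) were higher in root and 8 (2.56%) were higher in leaf. Of all 20716 unigenes tested, 8.05% were higher in root and 8.82% in leaf, so both shares of the long unigenes lay below those of the whole table by this rule, while in the next shorter class the shares were 2.61% and 3.17%. These differences were not tested. The median log2 ratio of leaf to root was -0.41 over the long unigenes and -0.40 over all, and 160 of the 312 lay below the median of all, 152 above it. On deposited TPM, which moved log2 ratios of leaf to root by a median of -0.65, 39 were higher in root and 4 in leaf, where the background was 16.2% and 6.55%. Scaling by totals without the most counted unigene, which moved log2 ratios of leaf to root by -0.31, gave 24 and 5. The shares over all unigenes were not computed on that scale, so these numbers have no background. At 2-fold, 72 were higher in root and 15 in leaf, where the background was 25.5% and 15%. With the whole interval beyond 4-fold these numbers were 14 (4.49%) and 6 (1.92%), against 2.07% and 6.99% of the 38203 unigenes with at least 10 counts. An interval is narrower where counts are high, so this rule favours long unigenes, which collect more counts. It therefore cannot show whether they held a larger share at the root end.

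The 2 strongest contrasts each way between leaf and root were taken by the interval bound nearest to equality. Unigene46337 (5799 nt) had 800 leaf, 805 stem and 18 root counts, at 37.3, 30.3 and 0.45 TPM. Unigene50460 (5745 nt) had a closely similar profile, with 853, 858 and 28 counts, at 40.2, 32.6 and 0.71 TPM. Both were shoot unigenes nearly empty in root, 129.7-fold (81.5 to 219.9) and 88.9-fold (61.1 to 134.6) higher in leaf than in root. At the other end, Unigene19935 was at least 167-fold higher in root, with leaf set to 3 counts, and Unigene39933 was 161-fold higher in root (90.0 to 323). Unigene35822, with 2 leaf counts, had a ratio of 166.7 and a wider interval (46.0 to 1379). With leaf again set to 3 counts, Unigene40111 was at least 70.6-fold and Unigene35821 at least 30.2-fold higher in root. The 8 unigenes higher in leaf had a median of 20.9 TPM in leaf and 1.88 TPM in root, and the 18 higher in root had 16.3 TPM in root and 0.40 TPM in leaf. Together the 18 held 0.224% of the root counts, and the 8 held 0.141% of the leaf counts. Unigene28437 was in neither set, so all of these counts stand without it.

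**Figure D3:**
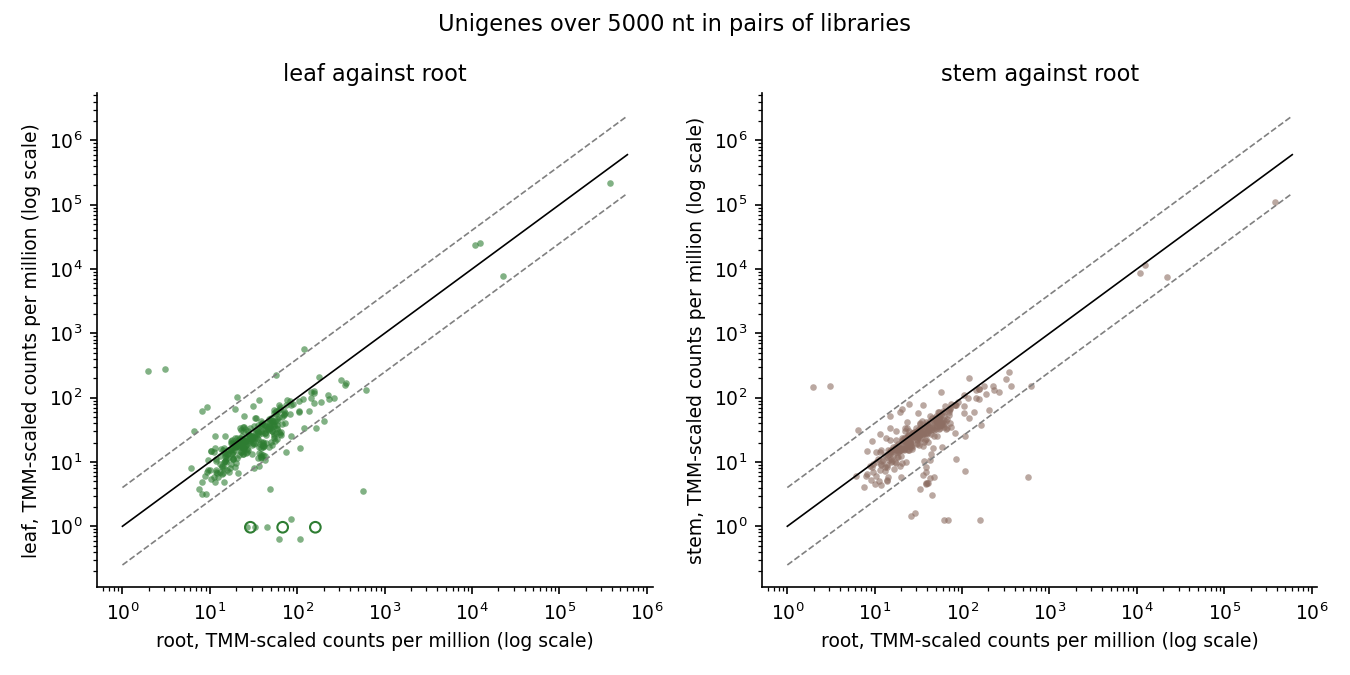
TMM-scaled CPM (counts scaled to a common library total, log scales) of the 312 unigenes over 5000 nt in leaf (left) and stem (right) against root, with the line of equality and dashed lines at 4-fold; open circles are the 3 unigenes with no leaf count, drawn at 3 counts. Beyond the dashed lines lie 18 unigenes higher in root and 8 higher in leaf at left, and 23 higher in root and 3 higher in stem at right.

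Stem was compared with root in the same way, sharing the root library with the comparison above. All 312 were tested, and 23 (7.37%) were higher in root and 3 (0.962%) in stem, against a background of 4.83% and 8.37% of 22810 unigenes. The long unigenes thus held a larger share at the root end and a smaller one at the stem end than the whole table, and neither difference was tested. In the next shorter class these shares were 1.48% and 2.78%. The median log2 ratio of stem to root was -0.33 over the long unigenes, -0.20 over all unigenes and -0.22 in the next shorter class, and 189 of the 312 (60.6%) lay below the median of all. The sign of the members' median depended on the scale, with a range from -0.46 to 0.13, the latter with total counts. With total counts 17 were higher in root and 7 in stem. No shares over all unigenes were computed with total counts, so these numbers have no background. The other rules gave 23 and 3 on deposited TPM (background 5.32% and 7.87%) and 51 and 12 at 2-fold (14.9% each way). With the whole interval beyond 4-fold the numbers were 16 and 2 (1.88% and 6.08% of 40723 unigenes with at least 10 counts). That rule again favours unigenes with many counts, so these shares cannot be set against each other.

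Unigene46337 was 73.0-fold (45.9 to 123.8) and Unigene50460 49.997-fold (34.3 to 75.7) higher in stem than in root. The third was Unigene13056 (5766 nt), named after its values were seen, with 94 leaf, 175 stem and 59 root counts. Unigene39933 was 99.0-fold higher in root than in stem (70.1 to 144.9) and Unigene19935 128-fold (62.0 to 319). The 23 higher in root had a median of 10.7 TPM in root and 1.28 TPM in stem. Several of them had stem below leaf. Unigene60534 (5524 nt), Unigene60535 (5509 nt) and Unigene60536 (5302 nt), which are consecutive numbers chosen after their values were seen, stood at 1.76 to 1.97 TPM in leaf, 1.03 to 1.44 TPM in stem and 8.87 to 9.61 TPM in root. Whether they share sequence was not tested. With each run of consecutive numbers counted once the 23 became 21.

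Leaf and stem, the organs of the shoot, were close to each other among the long unigenes. Of 293 with 50 counts over these libraries, 1 (0.341%) was over 4-fold higher in leaf and 1 (0.341%) in stem, against 0.867% and 1.73% of the 16957 unigenes tested. Unigene55718 (6139 nt) had 193 leaf, 81 stem and 74 root counts, at 8.49, 2.87 and 1.75 TPM, and was 4.26-fold higher in leaf than in stem (3.27 to 5.59). This was under 4-fold with total counts, with totals without the most counted unigene and on deposited TPM. Unigene35837 (6164 nt), at 9.81, 4.20 and 2.00 TPM, was 3.37-fold higher in leaf (2.68 to 4.24). Unigene56076 (5281 nt) had 4 leaf, 62 stem and 779 root counts. It was 8.67-fold higher in stem than in leaf (3.22 to 32.8), and root was its highest library. Unigene7016 (5086 nt), at 2.03, 8.10 and 3.90 TPM, had stem as its highest library and was 2.77-fold higher there than in leaf (1.94 to 4.03). The median log2 ratio of leaf to stem was -0.09, against -0.12 over all unigenes, and 274 of the 293 (93.5%) lay within 2-fold, against 85.7% of all. This closeness was not particular to the long unigenes. In the next shorter class 487 of 510 (95.5%) lay within 2-fold, and 0.196% and 0% were over 4-fold higher in leaf and in stem. At 2-fold, 12 were higher in leaf and 7 in stem (background 6.88% and 7.46%). On deposited TPM these numbers were 0 and 1 (0.301% and 3.51%), and with the whole interval beyond 4-fold 0 and 0 of 308 (0.21% and 0.314%).

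The order of the long unigenes by level was most alike between leaf and stem. Across the 312, Spearman's rho of TPM was 0.904 between the shoot libraries, 0.633 between stem and root, and 0.594 between leaf and root. Without the 4 most abundant it was 0.901, 0.619 and 0.578. For the 25197 unigenes with at least 50 counts the values were 0.854, 0.570 and 0.460. These values run across unigenes of the same libraries and are descriptions.

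The spread of the ratios narrowed with length up to 5000 nt, while counts per unigene grew with it, and the long unigenes were as narrow or narrower by the interquartile range but held fewer within 2-fold. The interquartile range of the log2 ratio of leaf to root was 0.81 over the long unigenes, 0.80 in the next shorter class, 1.24 between 2000 and 3000 nt and 1.45 between 500 and 1000 nt. For stem and root it was 0.58, 0.72, 1.03 and 1.19 in the same order. The share of unigenes within 2-fold between stem and root was 79.8% over the long unigenes, 86.8% in the next shorter class and 64.3% between 500 and 1000 nt. The part of counting error in this narrowing was not tested. The medians did not move steadily with length, since for leaf and root they were -0.60 between 500 and 1000 nt, -0.31 between 2000 and 3000 nt and -0.41 over 5000 nt.

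**Figure D4:**
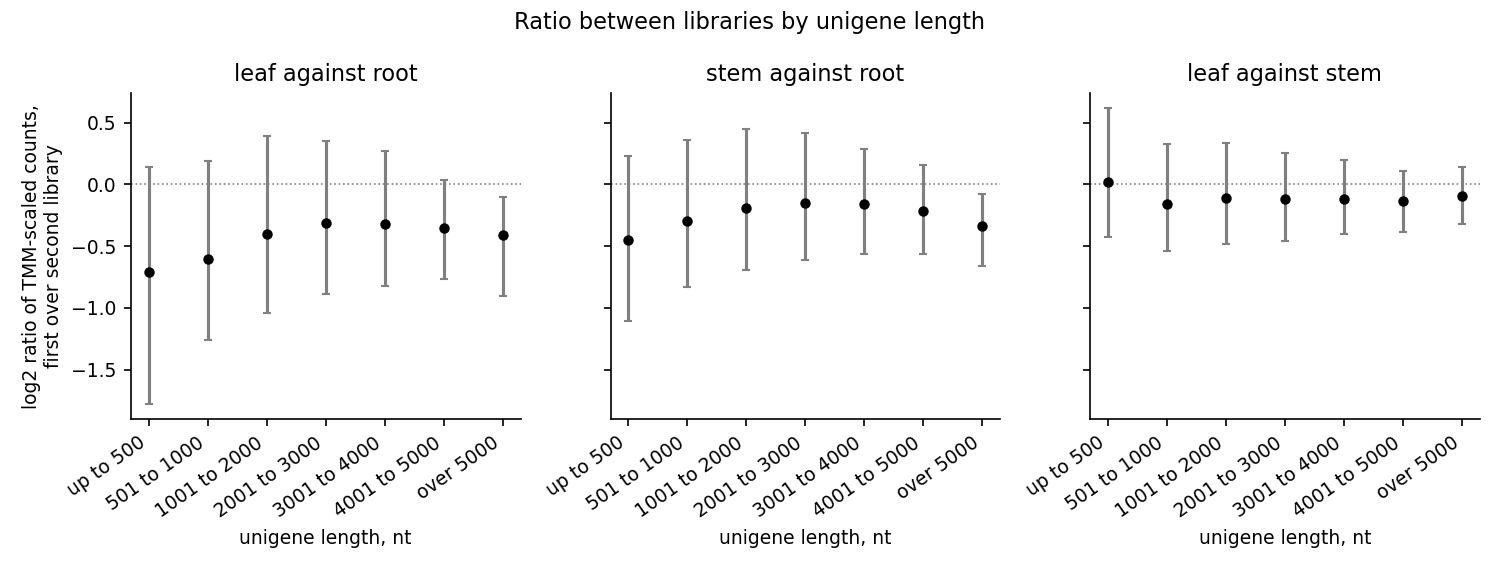
Log2 ratio of TMM-scaled counts between libraries by unigene length class, for unigenes with 50 or more counts over both libraries; points are medians and bars run from the first to the third quartile. For leaf against root the median is -0.60 between 500 and 1000 nt and -0.41 over 5000 nt, and the bars are shortest in the classes above 4000 nt.

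Unigene numbers showed that some long unigenes were grouped in the assembly. These groupings were looked at after the values had been seen. Numbers 30881 to 35846 are sorted by rising length, from 338 to 8606 nt, and the 27 long unigenes at the end of this stretch have consecutive numbers through that order. Outside it, 73 of the other 285 long unigenes (25.6%) fell into 28 runs of consecutive numbers, of which 18 were pairs, 6 held 3, 3 held 4 and 1 held 7. The run of 7, Unigene61942 to Unigene61948, had lengths of 5134 to 5471 nt, and its levels were 0.92 to 1.51 TPM in leaf, 0.97 to 2.43 in stem and 2.81 to 4.32 in root. Unigene62918 to Unigene62921 were close in length and level, with 5179 to 5217 nt and 8.39 to 9.71 TPM in root. Other runs were not, such as Unigene59315 to Unigene59317, with 5137 to 7266 nt and 3.01 to 26.3 TPM in leaf, and Unigene61869 to Unigene61872, with 2.44 to 17.82 TPM in root.

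Neighbours in such runs had smaller differences in tissue pattern than neighbours in the length-ordered stretch, which was not tested. The median absolute difference in the log2 ratio of leaf to root was 0.19 over the 45 consecutive pairs outside the stretch, 0.84 over the 26 pairs inside it and 0.67 over the 48445 pairs of long unigenes that were not consecutive. For stem and root it was 0.15, 0.48 and 0.55, and for log2(TPM + 1) in root 0.19, 0.78 and 0.85. For leaf and stem the gap was smaller, at 0.28 over 39 pairs outside the stretch, 0.47 over 23 pairs inside it and 0.38 over the others. Unigene60669 and Unigene60670, both of 5185 nt, stood at 1.15 and 1.10 TPM in leaf, 2.11 and 2.41 in stem and 2.98 and 3.06 in root. In the length-ordered stretch, Unigene35822 (5253 nt) had 2 leaf, 40 stem and 973 root counts, while Unigene35823 (5254 nt) had 80, 292 and 134. Likewise Unigene35838 (6165 nt), at 12.2, 21.3 and 22.4 TPM, differed from Unigene35837 by 1 nt and was lowest where that one was highest. Whether members of a run share sequence, and so reads, was not tested. Counting each run once left 267 groups, of which 8 were higher in leaf and 18 higher in root in the comparison of leaf with root.

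**Figure D5:**
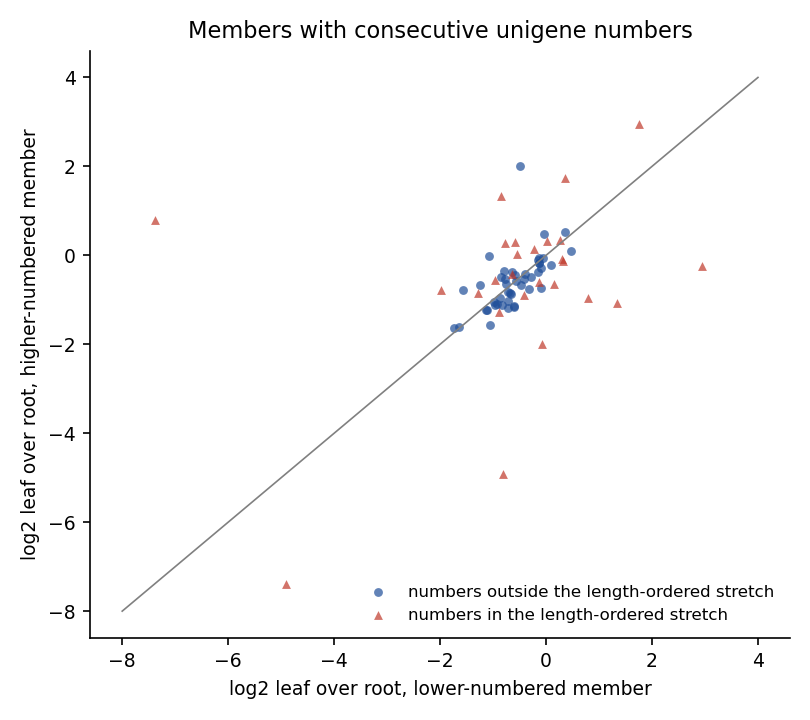
Log2 ratio of leaf to root (TMM-scaled counts) for the lower-numbered against the higher-numbered member of each pair of long unigenes with consecutive numbers; the line marks equality. The 45 pairs outside the length-ordered stretch (circles) lie closer to the line than the 26 pairs inside it (triangles), with median absolute differences of 0.19 and 0.84.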

How the data were processed

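The 3 deposited library tables list the length and effective length of every unigene with its TPM, FPKM and expected count, per the file headers. Per the submitters' processing notes the tools were Trimmomatic and RSEM. Assembler and aligner names were not given in the sources used here. The expected counts deposited by the authors were whole numbers in 100% of cells, so they were entered unrounded. TPM as deposited lay within 2% of values recomputed from counts and effective lengths in 100% of cells with 20 or more counts. The authors' merged table gave the lengths, and its FPKM had 0 differences from the library tables. TMM factors (edgeR 4.0.16, R 4.3.3) were 0.891 (leaf), 1.24 (stem) and 0.903 (root). No quasi-likelihood test was run, as 1 library per tissue leaves no spread. Ratios carry exact conditional binomial 95% intervals (scipy 1.17.1). A unigene counted as apart at 4-fold with 50 counts over both libraries, with a library at 0 set to 3 counts. The functions were tested on simulated data. Named unigenes were the most counted, the next 9 by mean TPM, the 5 longest, the 2 each way per comparison with the strongest interval bound, the 2 most even, those next to the length limit, those at 0 in a library and the 3 consecutive pairs closest in length. The length rule uses no expression value, but it and the lists were chosen with earlier results of these data known. Alternatives were other scales (DESeq2 1.42.0 among them), folds, count minimums, length limits and thinning to 3490670 counts.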

Additional observations from a re-analysis of the deposited data

How the results depend on the processing

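Of 127 recomputed values, 78 stayed within 1.5 times (counts of unigenes), within the binomial interval (shares) or within the order-statistic interval (medians), and 49 moved. DESeq2 size factors and leaving the most counted unigene out of the members moved none of the 6 percentages of members apart. Leaf against root had 2.56% of the members higher in leaf and 5.77% in root. These became 1.60% (leaf) with totals without the most counted unigene, 1.28% and 12.5% with deposited TPM, 4.81% and 23.1% at 2-fold, where all unigenes gave 15% and 25.5%, and 3.77% (root) over 4000 nt. Stem against root (0.962% in stem, 7.37% in root) gave 2.24% (stem) with total counts, 3.85% and 16.3% at 2-fold, where all unigenes gave 14.9% each way, 2.12% and 3.64% over 4000 nt, and 0% and 4.85% over 6000 nt. Leaf against stem (0.341% each way) gave 0% (leaf) with total counts, with totals without the most counted unigene and with deposited TPM, 4.10% and 2.39% at 2-fold (all unigenes: 6.88% and 7.46%), 0% each way where the whole interval had to lie beyond 4-fold (all unigenes: 0.21% and 0.314%), 0.649% and 0.641% (stem) with minimums of 10 and 1 counts, 0.125% (stem) over 4000 nt, and 0.980% and 0% over 6000 nt. The cause of these changes was not tested. Shares over all unigenes were not computed with total counts or with totals without the most counted unigene. At 5 TPM 25.3% of the members were detected in leaf and 50.6% in stem. The members' share of leaf, stem and root counts was 7.48%, 5.52% and 8.32% without the most counted unigene, 3.08%, 2.30% and 7.02% of TPM, 26.8%, 20.4% and 41.4% over 4000 nt, 20.7%, 15.2% and 37.0% over 6000 nt, and 1.25%, 1.57% and 2.18% without the 4 most abundant, an alternative added after seeing the data, as was counting each run of numbers once. Median TPM over 6000 nt was 4.10 in leaf, 6.07 in stem and 8.32 in root, and 6 in root over 4000 nt. Members with a tau of 0.85 or more numbered 2 with pseudocount 0.1, 11 with pseudocount 5 and 3 on TMM-scaled CPM, against 7. Relative to TMM, total counts shifted stem to root by 0.46 and leaf to stem by -0.48 on the log2 scale, totals without the most counted unigene moved leaf to root by -0.31 and leaf to stem by -0.38, upper quartile factors moved stem to root by -0.12, and deposited TPM moved stem to root by -0.12 and leaf to stem by -0.53. No paired analysis was possible because 1 library stands for each tissue, and no replicate could be left out. Depth limits statements on low leaf levels.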

Other observations

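The unigenes numbered next to the 4 most abundant long unigenes were looked at after their values had been seen. Unigene42138 was followed by 3 abundant shorter unigenes. Unigene42139 (1540 nt) stood at 4000.7 TPM in leaf, 3999 in stem and 2958 in root, Unigene42140 (852 nt) at 6490, 5818 and 4961 TPM, and Unigene42141 (1039 nt) at 2904, 2941 and 3365 TPM. On deposited TPM the leaf and stem levels of these shorter unigenes were close to each other, whereas Unigene42138 stood at 3582 TPM in leaf and 1906 in stem. Relative to TMM, deposited TPM moved log2 ratios of leaf to stem by a median of -0.53, so the closeness depends on the scale. Unigene28436 and Unigene28438, on either side of Unigene28437, stood at 28.1 and 1.66 TPM in root.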
